A study of Mus musculus with 50 samples.

Results

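The 10 genes described here are Clec1a, Jam2, Ehd3, Neo1, Sult1a1, Mt1, Clu, Aldh1a1, Gstm2 and Plscr2, which are known as genes that rise in haematopoietic stem cells (HSCs) of old animals. They were chosen by name, with earlier results of these data known, and all 10 of 10 were found among the 19224 genes of the count matrix. In the study, 1 HSC from a β-actin-GFP transgenic donor on the B6-Ly5.2 background was given to a lethally irradiated B6-Ly5.2 recipient, together with whole marrow of B6-Ly5.2 mice as competitor cells. Blood-forming cells were taken after 1 month (10 samples), 4 months (26 samples) or 12 months (14 samples), enriched for c-Kit from marrow or from marrow and spleen, and sorted singly by GFP or by surface markers that included CD201 (Procr), CD150 (Slamf1) and CD48. All recipients were irradiated and all carried competitor cells beside host cells that outlived the irradiation. The labels give no age for donors or recipients. The 4271 cells used carry names made of a library and a barcode, 0 of which hold a sample title, so no cell could be tied to a month, a tissue, a sort gate or GFP. The 67 libraries were therefore described as 1 pooled sample, without p-values, and a question about age or time after transplantation cannot be put to these values.

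With age the HSC pool of the mouse grows in cell number while its output shifts towards platelets and myeloid cells. A recurring set of transcripts is higher in HSCs of old mice, and the genes described here belong to it. Surface CD150, the product of Slamf1, is used to enrich HSCs and is found on more HSCs in old mice, while CD34 is absent from most long-term HSCs of adult mice and present on short-term HSCs and multipotent progenitors. Most HSCs rest outside the cell cycle, and progenitors divide often.

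The members fall into surface receptors and other membrane-linked proteins, enzymes of small-molecule metabolism and 2 stress-linked proteins. Clec1a is a C-type lectin-like receptor, Jam2 a junctional adhesion molecule, Neo1 (neogenin) a receptor for netrins and repulsive guidance molecules, Ehd3 an EH-domain ATPase of endocytic recycling and Plscr2 a phospholipid scramblase family protein. Sult1a1 is a phenol sulfotransferase, Aldh1a1 a retinaldehyde dehydrogenase and Gstm2 a mu-class glutathione S-transferase. Mt1 is a metallothionein that binds zinc and copper, and Clu (clusterin) is a secreted chaperone. In RefSeq (GRCm38.p6) the 10 genes lie on 9 chromosomes, with Neo1 and Plscr2 both on chromosome 9.

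The RefSeq start regions used here covered 6 of the 10 members. Of those, the 2 windows of Mt1 and Sult1a1 are shown, with that of Mt2, which is no member. Each holds the 250 bases before an annotated start. For Mt1 and Sult1a1 RefSeq also annotates gene sequence beyond the start used here, so those windows belong to 1 of several starts. The Mt1 gene begins at base 94178883, so most of its window lies within the annotated gene. The counts of matches in Mt1 and Mt2 are thus not a comparison of like regions. Mt1 is given with its neighbour Mt2, which lies beside it and shared its direction with Slamf1 and Cd34 but not its size in cycle-high cells, and Sult1a1 because it had the largest difference with the cell cycle genes. Capitals in Mt1 and Mt2 mark the core of the metal response element (TGCGCNC or TGCACNC, searched on both strands), the motif of the zinc sensor MTF-1. Capitals in Sult1a1 mark the cell cycle homology region (TTTGAA, both strands), a motif of promoters regulated through the cell cycle.
Mt1 (plus strand, chr8:94178839-94179088): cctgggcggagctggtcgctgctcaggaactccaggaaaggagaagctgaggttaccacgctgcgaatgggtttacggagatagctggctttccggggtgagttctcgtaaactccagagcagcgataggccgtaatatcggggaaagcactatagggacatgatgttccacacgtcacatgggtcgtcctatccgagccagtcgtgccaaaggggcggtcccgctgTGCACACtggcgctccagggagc
Mt2 (plus strand, chr8:94172368-94172617): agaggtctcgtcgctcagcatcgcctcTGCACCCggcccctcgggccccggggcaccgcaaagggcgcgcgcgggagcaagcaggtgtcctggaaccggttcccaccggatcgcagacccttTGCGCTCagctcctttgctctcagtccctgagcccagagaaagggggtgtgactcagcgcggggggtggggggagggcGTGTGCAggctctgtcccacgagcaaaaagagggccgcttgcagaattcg
Sult1a1 (minus strand, chr7:126676419-126676668): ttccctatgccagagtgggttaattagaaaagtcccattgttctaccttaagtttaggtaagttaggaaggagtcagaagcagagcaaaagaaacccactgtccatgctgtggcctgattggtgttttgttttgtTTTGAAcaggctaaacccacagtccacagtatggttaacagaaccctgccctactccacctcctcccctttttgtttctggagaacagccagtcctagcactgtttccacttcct
The metal response element core stood 1 time in the Mt1 window, 23 to 17 bases before the start, and 3 times in the Mt2 window, and 21.4% of the 32851 windows in the table held it at least 1 time. The TTTGAA motif stood 1 time in the Sult1a1 window, 115 to 110 bases before the start, and 16.0% of all windows held it. It stood 2 times in an Aldh1a1 window (chr19:20492333-20492582), and Aldh1a1 differed by only -0.28 in cycle-high cells. A match is a description of the letters and not a binding site.

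Requiring 1000 genes with a count, and no more than 10% of counts from mitochondrial genes, left 4185 of 4271 cells. The median kept cell had 122013 counts and 4186 detected genes. Cells with at least 1 Procr count, called Procr+ cells here, numbered 3263 (78.0%, exact 95% binomial interval 76.7 to 79.2), with a median of 133165 counts against 73874 in the 922 Procr-negative cells. Of the HSC transcription factor genes, Meis1 was found in 95.9%, Mecom in 90.3% and Hlf in 88.6% of Procr+ cells. A library held 1 to 91 Procr+ cells, and no 2 kept cells had identical counts. Levels are given as CPM, counts scaled to a total of 1000000, of the summed counts of a group of cells, and differences as log2 of CPM plus 1. A difference of at least 0.5, which is 1.41-fold, is called higher or lower. Exact Poisson and binomial 95% intervals cover counting error only. The counts come from amplified cDNA, and it is not stated whether they are reads or molecules, so the intervals on sums can be too narrow.

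Before the results, 3 libraries stand apart. Among the 62 libraries with at least 10 Procr+ cells, Aldh1a1 ranged from 72.3 to 306 CPM in 59, and was 16.8 CPM in Lib19 (23 Procr+ cells), 1.67 CPM in Lib22 (16 cells) and 7.71 CPM in Lib23 (70 cells). These libraries were singled out after their Aldh1a1 level was seen, so that level is no finding. The other members were low there too. Sult1a1 had no count in Lib19 and Lib22 and stood at 6.48 CPM in Lib23 against 261 CPM in the Procr+ cells of all other libraries. Clec1a had no count in Lib19 and Lib22 and stood at 11.4 CPM in Lib23 against 53.6 CPM. Plscr2 was at 0.00, 0.17 and 0.00 CPM against 49.6 CPM, and Neo1 had no count in any of the 3 libraries. In Lib23 all 10 members were lower by at least 0.5 than in the other libraries, where 21.6% of 9870 genes tested were, and the member median was -1.94. In Lib22 all 10 were lower beside 41.6% of genes, and in Lib19 9 of 10 were lower beside 43.3%, the exception being Mt1. These counts and the median include Aldh1a1, whose low level was fixed by the choice of the libraries.

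In Lib23 most genes that define HSCs were not lower. Procr stood at 237 CPM against 262 CPM in the other libraries, Hlf at 245 against 209 CPM, Mecom at 155 against 150 CPM and Mllt3 at 272 against 212 CPM. Of 13 HSC identity genes tested 3 were lower by at least 0.5, a share near the 21.6% of all genes tested. Of the other genes reported higher in old HSCs, 16 of 19 tested were lower in Lib23, where 21.6% of all genes tested were. Nupr1, a stress-response chromatin protein gene, was at 7.40 CPM against 242 CPM, and Mmrn1, the multimerin of platelets and endothelium, at 15.4 against 127 CPM. Vwf, the von Willebrand factor gene, was at 17.0 against 16.6 CPM and Selp, the P-selectin gene, at 45.6 against 47.3 CPM, so not all of the list was lower. In Lib19 and Lib22, by contrast, 12 of 13 and 9 of 13 HSC identity genes were also lower, where 43.3% and 41.6% of all genes tested were.

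The low shares in Lib23 were also seen at equal depth. After each cell was thinned to 20000 counts, Sult1a1 was found in 8.33% of 60 Lib23 cells against 60.1% of 2999 cells of the other libraries, and Plscr2 in 0 of 60 against 24.1%. Slamf1 was found in 23.3% against 21.9% and Cd34 in 81.7% against 70.7%, so the share of Slamf1+ cells was close. Several other measures moved with these libraries. Slc16a11, a monocarboxylate transporter family gene, was at 37.4, 89.8 and 53.0 CPM in Lib19, Lib22 and Lib23, and its highest level in the other 59 libraries was 22.8 CPM, with a median of 0.19 CPM; it was named after its values were seen. The Y-linked genes Eif2s3y, Ddx3y, Kdm5d and Uty summed to 0.00, 0.00 and 2.47 CPM in the 3 libraries, but they were also under 5 CPM in 23 of the other 59 libraries, where Sult1a1 ranged from 15.9 to 629 CPM (median 283 CPM) and Aldh1a1 from 120 to 259 CPM. Whether the donor, its age, the month or the gate of these libraries differed was not tested, because no table used here ties a library to a sample.

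**Figure D1:**
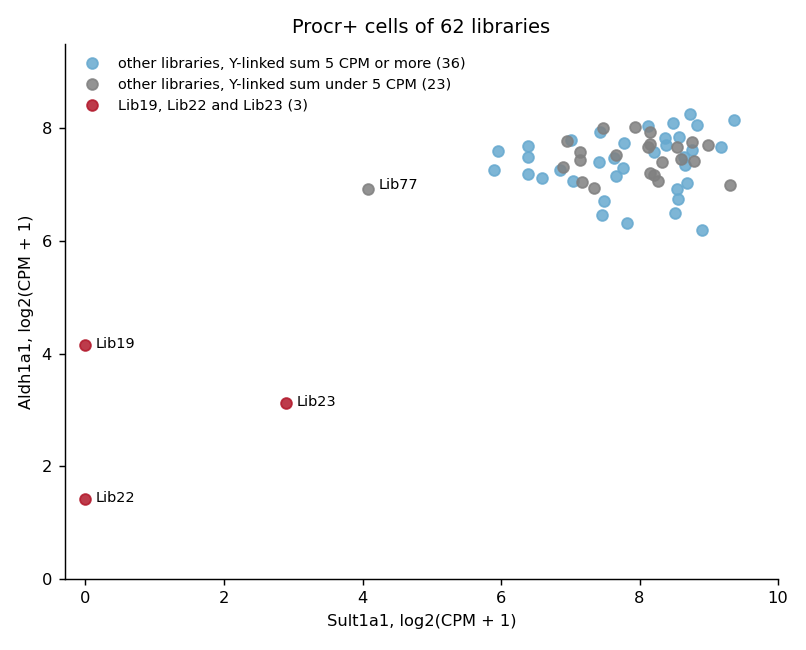
Level of Sult1a1 (x axis) against Aldh1a1 (y axis) in the Procr+ cells of each of 62 libraries, both as log2(CPM + 1); each point is 1 library, coloured by the summed level of 4 Y-linked genes. Lib19, Lib22 and Lib23 lie apart from the other 59 libraries on both axes, while Lib77, at 15.9 CPM of Sult1a1, is low on the x axis and within the others on the y axis. Lib19, Lib22 and Lib23 were singled out by Aldh1a1, so their place on the y axis is no finding.

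Over the 62 libraries the members varied to unequal degrees. Aldh1a1 had a median of 173 CPM with quartiles of 133 and 210 CPM, and Sult1a1 a median of 260 CPM with quartiles of 140 and 375 CPM and a highest value of 655 CPM in Lib50. Gstm2 ranged from 0.00 to 80.3 CPM with a median of 27.1 CPM. Lib77 was low in Sult1a1 (15.9 CPM) while Aldh1a1 was at 120 CPM and its Cd34 level, 344 CPM, was the fourth highest, and the next lowest of the remaining libraries had 58.5 CPM of Sult1a1. Of the genes of membrane-linked proteins, Clec1a had quartiles of 29.7 and 66.4 CPM around a median of 40.2 CPM, and Plscr2 ran from 0.00 to 218 CPM around a median of 33.5 CPM. Jam2 ranged from 0.00 to 47.6 CPM (median 10.6 CPM) and Ehd3 from 0.00 to 35.7 CPM (median 7.70 CPM). Neo1 had a median of 1.93 CPM, no count in 12 libraries and 43.1, 50.0 and 43.6 CPM in Lib114, Lib115 and Lib116. Some libraries stood far above the others for Mt1 and Clu as well. Mt1 had a median of 74.6 CPM and reached 941 CPM in Lib17 and 1426 CPM in Lib19, and Clu had a median of 6.02 CPM and reached 74.2 CPM in Lib54 and 121 CPM in Lib3. Lib54 and Lib3 are among 8 libraries, with 491 Procr+ cells, whose summed erythroid or neutrophil genes exceeded 5000 CPM in Procr+ cells, where the library medians of those sums were 502 and 763 CPM; each count led with below is also given without them. Across the 62 libraries, 41 of 45 member pairs had a Spearman rho above 0 (median 0.26), with Clec1a and Aldh1a1 at 0.59 and Mt1 and Plscr2 at -0.23. Without Lib19, Lib22 and Lib23 the median was 0.18 over 59 libraries, with 40 of 45 pairs above 0. Libraries differ in depth and cell makeup, so these values are a description.

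Detection followed from level and depth. In the 3092 Procr+ cells with at least 20000 counts, thinned to that number, Aldh1a1 was found in 67.6%, Sult1a1 in 58.4%, Mt1 in 31.9%, Clec1a in 26.8%, Plscr2 in 23.4%, Gstm2 in 13.6%, Jam2 in 11.5%, Ehd3 in 8.12%, Clu in 6.31% and Neo1 in 4.37%. Cells that should lack HSC genes gave the background. In 25 thinned Procr-negative cells that held at least 60% of the T-lineage marker list (median 54628.5 counts before thinning), Clec1a, Aldh1a1, Gstm2, Plscr2 and Neo1 were found in 0 cells and Sult1a1 in 4.00%. In 187 such cells with the neutrophil list (median 99423 counts), Sult1a1 was found in 19.8% and Aldh1a1 in 18.7%. Ehd3 was found in 12.0% of the T-list cells and in 7.69% of 91 cells with the erythroid list, so its share in Procr+ cells lay at the level of cells of other types. Mt1 was found in 74.7% of the erythroid-list cells, at 915 CPM against 123 CPM in Procr+ cells, so Mt1 is no marker of HSCs here. Counts were held by few cells for some members: 22 cells held 50% of all Clu counts in Procr+ cells, and 25 cells those of Neo1, against 406 cells for Aldh1a1.

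Slamf1+ cells carried more of the members. Among Procr+ cells, 1064 had at least 1 Slamf1 count and 2199 had none. All 10 members were at a higher summed level in Slamf1+ cells, 5 of them by at least 0.5, where 1.13% of 9868 genes tested were higher by that much, 0.953% lower and 2.09% either, and the member median was 0.48 against 0.00 over all genes tested. Without the 8 libraries high in erythroid or neutrophil genes, 4 members were higher by at least 0.5 (median 0.39), and without Lib19, Lib22 and Lib23 4 were (median 0.46). Taken library by library, the member median was higher in Slamf1+ cells in 40 of 59 libraries with at least 5 cells of each kind and lower in 18.

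Clu differed most with Slamf1, followed by Neo1, Gstm2, Mt1 and Ehd3. Clu stood at 16.3 CPM (15.7 to 16.9) in Slamf1+ and 6.89 CPM (6.61 to 7.18) in Slamf1-negative cells, a difference of 1.13, and after thinning it was found in 11.0% against 5.21% of cells. Gstm2 stood at 37.4 against 23.1 CPM, a difference of 0.67, and was higher in 41 of 59 libraries. Mt1 stood at 155 against 104 CPM (0.57) and was higher in 36 of 59 libraries; without Lib87 its difference was 0.37. For Clu the pooled value rested on fewer libraries: it was higher in 31 and lower in 21, with a library median of 0.21. Of the genes of membrane-linked proteins, Neo1 (8.24 against 4.69 CPM, 0.70) and Ehd3 (12.3 against 8.03 CPM, 0.55) were past the limit, and Neo1 was higher in 25 and lower in 22 libraries. Ehd3 was at 0.41 without Lib54. Jam2 was at 0.37 and Clec1a at 0.30, with library medians of 0.34 and 0.02. Plscr2 differed least, at 49.8 against 47.6 CPM (0.07). Aldh1a1, at 213 against 160 CPM, had a difference of 0.41 that was under the limit but was seen in 44 of 59 libraries, more than for any other member. Slamf1+ cells were deeper (median 152784 against 124598 counts), and in thinned cells all 10 differences stayed above 0, from 0.03 for Plscr2 to 1.33 for Neo1. Megakaryocyte-lineage genes moved alongside: 8 of 8 tested were at a higher level in Slamf1+ cells, 2 of them by at least 0.5, with a summed level of 556 against 401 CPM. So did, in the pooled counts, 26 of 27 G2/M genes, 5 of them by at least 0.5 (Ccnb1 0.62, Hmmr 0.60, Plk1 0.60). Of 9 erythroid genes 8 did, 2 of them by at least 0.5 (Rhag 1.02, Hba-a2 0.52). Of the 9 neutrophil-list genes Mpo (0.79) and Elane (0.71) were higher by that much. Library by library, the megakaryocyte median was higher in Slamf1+ cells in 36 of 59 libraries and lower in 21. The G2/M median was higher in 22 and lower in 37, and the erythroid median higher in 15 and lower in 26. The neutrophil median was higher in 16 and lower in 24. The pooled rise of G2/M and erythroid genes was thus not seen in most libraries. Library ratios rest on as few as 5 cells per group. Over all genes, library medians past 0.5 were mostly lower in Slamf1+ cells, as given below, so these tallies cannot decide about the pooled rise. The part of these genes in the member differences was not tested.

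Cd34+ cells carried less. Among Procr+ cells, 2739 had a Cd34 count and 524 had none. In Cd34+ cells 8 of 10 members were lower by at least 0.5, where 5.77% of 9868 genes tested were, and 1 was higher, where 6.84% were (12.6% in either direction). The member median was -1.02 against 0.02 over all genes tested. Without the 8 libraries high in erythroid or neutrophil genes 6 were lower (median -0.79), and without Lib19, Lib22 and Lib23 8 were (median -0.995). The member median was lower in 23 of 35 libraries with at least 5 cells of each kind and higher in 10.

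Among the enzymes, Sult1a1 stood at 229 CPM (227 to 230) in Cd34+ and 498 CPM (491 to 504) in Cd34-negative cells, a difference of -1.12 seen in 27 of 35 libraries. Gstm2 stood at 26.4 against 47.3 CPM (-0.82) in the pooled counts, but was lower in 18 and higher in 17 libraries, with a library median of -0.10. Aldh1a1 stood at 174 against 236 CPM (-0.43) and was lower in 23 libraries. Sult1a1 was the member with the most regular difference. Mt1 stood at 109 against 249 CPM (-1.18) and was lower in 24 of 35 libraries. Clu was lower in the pooled counts, at 8.98 against 23.7 CPM (-1.31), but its library median was 0.15, higher in 18 libraries and lower in 14. Neo1 was likewise lower in the pooled counts, at 4.14 against 23.7 CPM (-2.26), with 13 libraries lower, 15 higher and a library median of 0.00. The low levels of Clu and Neo1 leave many libraries with few counts. Jam2 was at 12.7 against 35.7 CPM (-1.42), lower in 19 and higher in 16 libraries, Ehd3 at 8.76 against 17.5 CPM (-0.93) and Clec1a at 49.9 against 76.3 CPM (-0.60); Clec1a was at -0.48 without Lib116. Plscr2 went the other way, at 50.0 against 34.1 CPM (0.54) and higher in 22 of 35 libraries, but in thinned cells its difference was -0.19. Cd34-negative cells had fewer counts (median 74901 against 147279), and a missed Cd34 transcript and an absent one cannot be told apart. When groups and values were taken from thinned cells, the other 9 members stayed lower in Cd34+ cells, from -0.30 for Aldh1a1 to -1.43 for Neo1. Cell cycle and progenitor genes moved alongside: 27 of 27 G2/M genes and 23 of 27 G1/S genes tested were higher by at least 0.5 in Cd34+ cells, as was Flt3 (1.32), the receptor gene of multipotent progenitors. Of the neutrophil list 7 of 9 genes were higher too, with a summed level of 2314 against 1542 CPM. In the pooled counts some markers of other cell types also went the way of the members. The 3 B-lineage genes tested were all lower in Cd34+ cells, with a list sum of 89.2 against 291 CPM and Cd79a at 4.99 against 98.8 CPM (-4.06). Of the megakaryocyte list 3 of 8 were lower, with Gp1bb at -1.56 and Ppbp at -1.43. Of the erythroid list 3 of 9 were lower, with Car1 at -1.19 and Klf1 at -1.14, and 2 higher. The erythroid sum was higher in Cd34+ cells, at 2992 against 2421 CPM. Library by library, the megakaryocyte median was higher in Cd34+ cells in 29 of 35 libraries and lower in 5. The erythroid median was higher in 23 and lower in 5, and the B-lineage median higher in 9 and lower in 10. Over all genes, library medians past 0.5 were mostly higher in Cd34+ cells, as given below, so these tallies cannot decide about the pooled values. The part of these genes in the member differences was not tested.

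**Figure D2:**
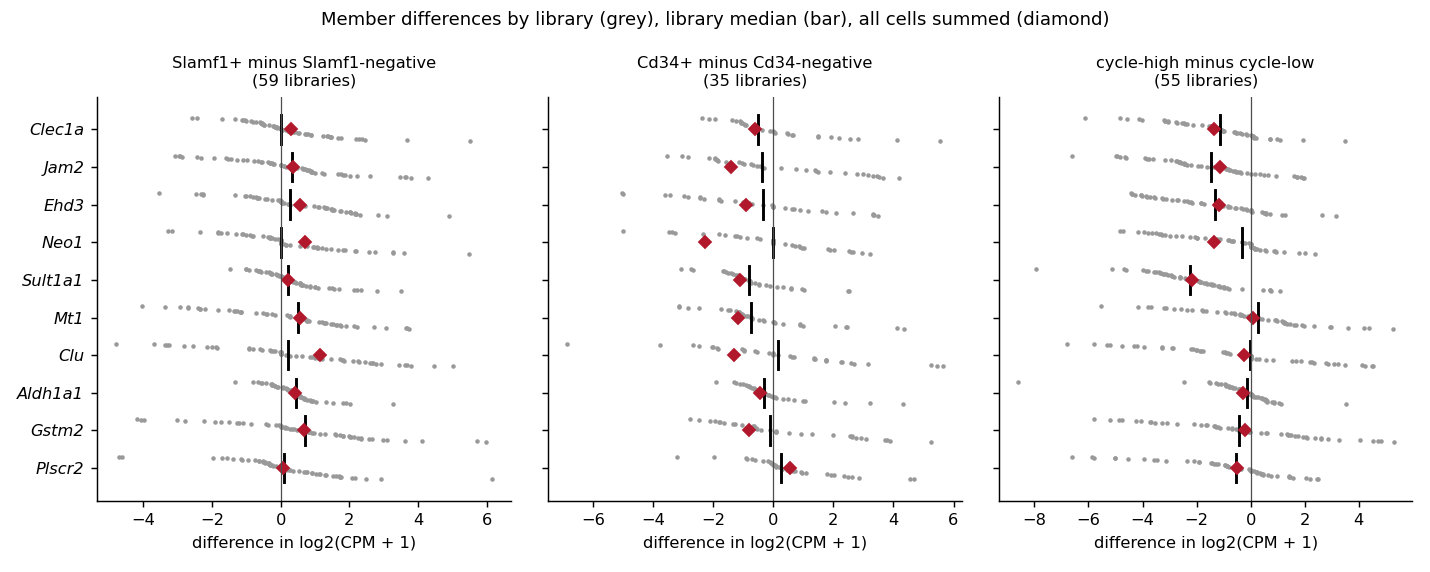
Differences in log2(CPM + 1) of each member (rows) between Slamf1+ and Slamf1-negative, Cd34+ and Cd34-negative, and cycle-high and cycle-low Procr+ cells; grey points are libraries holding 5 or more cells per group, black bars their median and red diamonds the value from all cells summed. Sult1a1 lies below 0 in 50 of 55 libraries in the cycle panel, and the Neo1 and Clu diamonds lie below their library medians in the Cd34 panel.

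Combined, the markers gave 4 classes. Slamf1+ Cd34-negative cells (155 cells) had the highest level of 7 members, and Slamf1-negative Cd34+ cells (1830 cells) the lowest of 9. Sult1a1 stood at 648 CPM (635 to 660) in the first class, 420 CPM in Slamf1-negative Cd34-negative cells (369 cells), 244 CPM in Slamf1+ Cd34+ cells (909 cells) and 219 CPM in Slamf1-negative Cd34+ cells. Neo1 stood at 35.6, 17.5, 5.59 and 3.26 CPM in the same order, and Clu at 31.9, 19.5, 14.8 and 5.48 CPM. Ehd3 was high in the first class only, at 30.5 CPM against 10.8, 10.5 and 7.72 CPM. Jam2 and Mt1 were highest in Slamf1-negative Cd34-negative cells, at 37.0 and 257 CPM against 33.1 and 234 CPM in the first class, and Plscr2 was highest in Slamf1+ Cd34+ cells (51.6 CPM). With classes and levels from thinned cells (203, 575, 370 and 1460 cells), Sult1a1 stood at 539, 440, 315 and 220 CPM and Ehd3 at 16.3, 9.48, 7.84 and 8.56 CPM. The cycle gene sum differed as well, at 1287 CPM in the first class and 2943 CPM in the last.

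**Figure D3:**
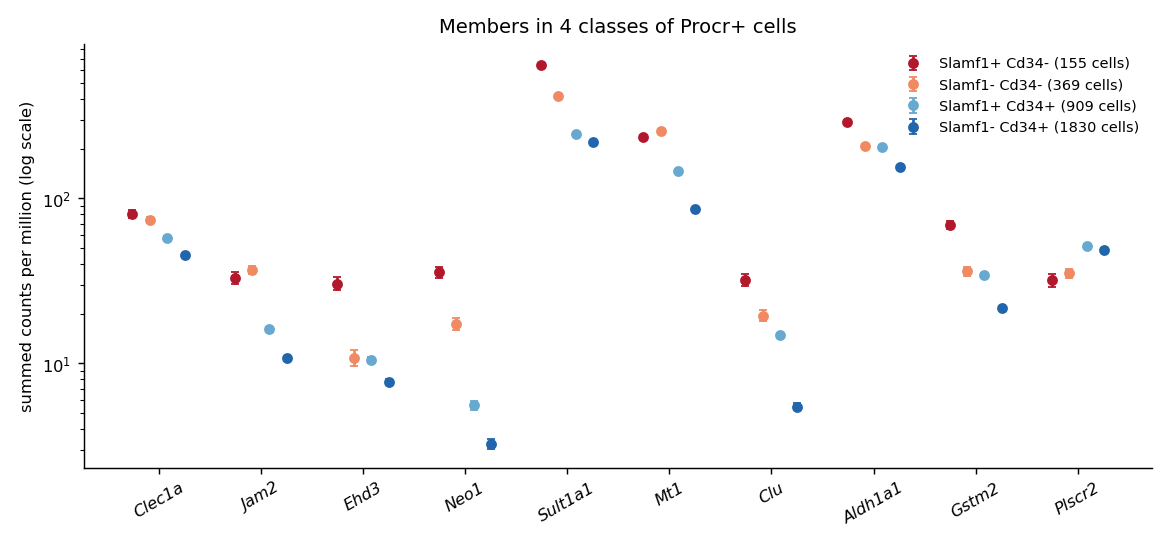
Summed level of each member (log scale, CPM, with exact Poisson 95% intervals) in 4 classes of Procr+ cells set by the presence of Slamf1 and Cd34 counts. Red points, for Slamf1+ Cd34-negative cells, lie highest for 7 of 10 members, and dark blue points, for Slamf1-negative Cd34+ cells, lie lowest for all but Plscr2.

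The differences with Slamf1 and with Cd34 were also present among cells with few cycle transcripts. Within the 1632 Procr+ cells in the lower 50% of the cycle gene sum, the member median was 0.46 between 547 Slamf1+ and 1085 Slamf1-negative cells and -0.78 between 1314 Cd34+ and 318 Cd34-negative cells. There, Sult1a1 differed by 0.33 with Slamf1 and by -0.76 with Cd34, and Mt1 by 0.91 and -1.14. Each marker's difference was likewise present at both settings of the other: the Slamf1 median was 0.48 within Cd34+ and 0.55 within Cd34-negative cells, and the Cd34 median was -0.99 within Slamf1+ and -0.82 within Slamf1-negative cells.

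Cells with high levels of cycle genes carried less of 6 members and about as much of 4. The 653 Procr+ cells in the highest 20% of the summed G1/S and G2/M genes were set against the 1632 in the lowest 50%; the class is a range of a sum, and the upper limit was 2223 CPM, and 305 cells lay within a factor of 5/4 of it. In cycle-high cells 6 members were lower by at least 0.5, where 12.1% of 9831 genes tested were, and none was higher, where 11.5% were (23.6% in either direction). The member median was -0.81 against -0.05 over all genes tested, and it was lower in 41 of 55 libraries. Without Lib19, Lib22 and Lib23, 5 members were lower (median -0.71), and without the 8 libraries high in erythroid or neutrophil genes 5 were (median -0.73).

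Sult1a1 had the largest difference, at 80.3 CPM (78.9 to 81.8) in cycle-high and 365 CPM (362 to 367) in cycle-low cells, which is 4.50-fold lower with the 1 CPM added (-2.17) and was seen in 50 of 55 libraries. Clec1a (26.9 against 69.4 CPM, -1.34), Jam2 (7.65 against 17.7 CPM, -1.12), Ehd3 (4.69 against 11.7 CPM, -1.16) and Neo1 (2.34 against 7.64 CPM, -1.37) were lower in 41, 43, 40 and 31 of 55 libraries. By the same tally the neutrophil-list median was lower in 28 and higher in 10 libraries, though its pooled median was 0.71. The erythroid-list median went with its pooled rise, higher in 20 and lower in 13. Tallies of sparse genes can thus lean to the lower side here. Plscr2, at 37.0 against 53.0 CPM, lay at the limit (-0.50). Leaving out any 1 of 27 of the 67 libraries brought Plscr2 just inside it. Aldh1a1 (156 against 190 CPM, -0.28), Gstm2 (25.4 against 29.8 CPM, -0.22), Clu (8.58 against 10.4 CPM, -0.25) and Mt1 (136 against 127 CPM, 0.10) differed by less than 0.5, and Aldh1a1 was lower in 30 and higher in 25 libraries. Of the enzymes, Sult1a1 was thus past the limit, and Aldh1a1 and Gstm2 were not. Cycle-high cells were deeper (median 187876 against 126992 counts), and in thinned cells Sult1a1 differed by -1.58 and was found in 43.1% against 68.5% of cells. Procr itself was at 134 against 325 CPM in cycle-high cells, and 9 of 9 erythroid genes were higher by at least 0.5, with a summed level of 4731 against 1850 CPM. Their part in the member differences was not tested; without the 8 libraries high in erythroid or neutrophil genes Sult1a1 was at -2.17. With the G1/S genes alone the member median was -0.69 and with the G2/M genes alone -0.59.

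Across 10 equal bins of cells by the cycle gene sum Sult1a1 stood at 454 CPM in the lowest bin, 284 CPM in bin 5, 212 CPM in bin 8 and 55.5 CPM in the highest, lower at each step. Clec1a held between 48.6 and 77.0 CPM over the first 8 bins and was at 23.9 and 28.8 CPM in the last 2. Jam2 was at 20.9 CPM in the lowest and 5.75 CPM in the highest bin. Aldh1a1 stayed between 151 and 197 CPM throughout. The pattern of Sult1a1 was thus graded among cells with few cycle transcripts too, while Clec1a was at a lower level in the last 2 bins. Cycle-high cells among the Slamf1+ Cd34-negative class were few (11 against 99 cycle-low cells), and Sult1a1 was lower there by 2.21. In Slamf1-negative Cd34+ cells (405 against 866) it was lower by 2.22.

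**Figure D4:**
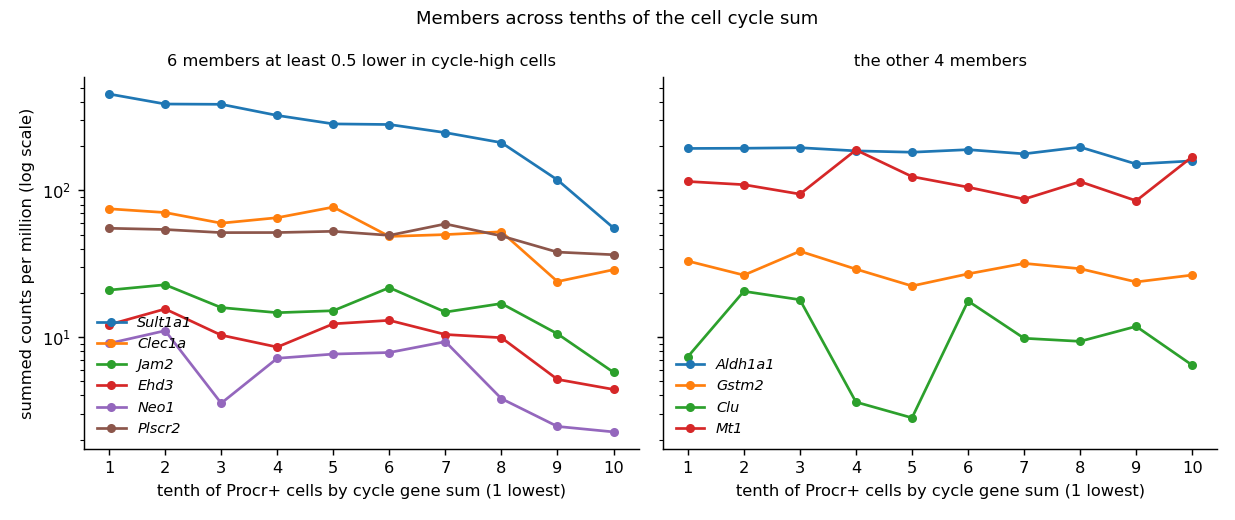
Summed level (log scale, CPM) of the members in 10 equal bins of Procr+ cells ordered by the sum of G1/S and G2/M genes, with the 6 members lower in cycle-high cells on the left and the other 4 on the right. Sult1a1 declines across all bins from 454 to 55.5 CPM, and Aldh1a1 stays between 151 and 197 CPM.

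Members were also compared between Procr+ and Procr-negative cells, and along the Procr level. In Procr+ cells 9 of 10 members were higher by at least 0.5, where 15.5% of 9981 genes tested were, and Mt1 was lower, where 14.6% were (30.1% in either direction). Sult1a1 stood at 255 against 64.5 CPM (1.96), Aldh1a1 at 180 against 68.6 CPM (1.38), Plscr2 at 48.4 against 16.1 CPM (1.53), Clec1a at 52.4 against 17.7 CPM (1.51) and Jam2 at 14.9 against 4.62 CPM (1.51). Without Lib19, Lib22 and Lib23 8 members were higher (member median 1.13 against 1.36 with them), and without the 8 libraries high in erythroid or neutrophil genes also 8 (1.20). Jam2 and Sult1a1 were each higher in 32 of 40 libraries, and Aldh1a1 in 23. Mt1 stood at 123 against 340 CPM in the pooled counts (-1.46), but was higher in Procr+ cells in 23 of 40 libraries, with a library median of 0.21. By the same tally the neutrophil-list median was higher in 25 and lower in 11 libraries, though its pooled median was -2.46. Over all genes, library medians past 0.5 were mostly higher too, as given below, so these tallies can lean to the higher side. The Procr-negative cells were shallower. With groups and values from thinned cells Ehd3 was at 0.11 and Gstm2 at 0.42, both under the limit, while Sult1a1 was at 1.55, Jam2 at 1.02, Clec1a at 0.99, Aldh1a1 at 0.69 and Plscr2 at 0.65. Procr-negative cells held more neutrophil-list counts (10187 against 2240 CPM), and the erythroid-list cells named above had high Mt1. Among 5 equal bins of Procr+ cells by Procr level, Sult1a1 stood at 133 CPM in the lowest and 476 CPM in the highest, and Clec1a at 40.6 and 77.3 CPM. Aldh1a1 was at 158 and 219 CPM, and Mt1 at 163 and 87.5 CPM, in the same bins. Procr level and the cycle sum are themselves linked in these cells, so these bins and those of the cycle sum do not give separate evidence.

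Members tended to be found in the same cells. In the 3092 thinned Procr+ cells, the number of cells with both members of a pair was set against the number expected from their shares within each library. It was above the expected number for 43 of 45 pairs. Clu and Gstm2 were found together in 58 cells where 31.2 were expected, a ratio of 1.86. Jam2 and Clu had a ratio of 1.75 (49 cells), Ehd3 and Neo1 of 1.62 (18 cells), Jam2 and Gstm2 of 1.61 (88 cells) and Neo1 and Clu of 1.61 (15 cells). The ratios were thus largest among sparse members, several on few cells. The ratio was small for the 2 most frequent members: Sult1a1 and Aldh1a1 were found together in 1318 cells where 1261 were expected (1.05). Plscr2 was in both of the 2 pairs under 1, with ratios of 0.91 with Neo1 and 0.99 with Mt1, but reached 1.19 with Clu.

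**Figure D5:**
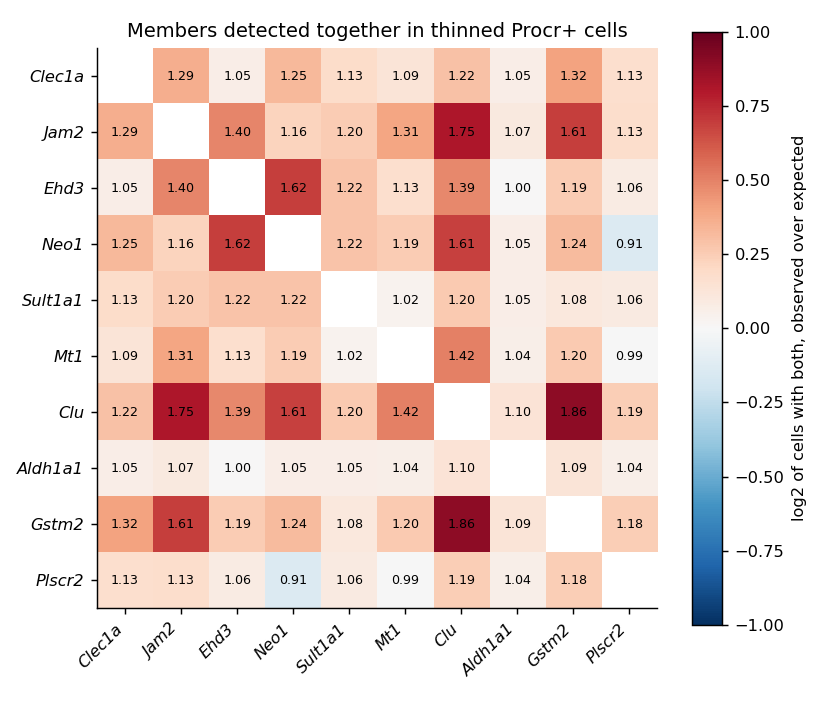
Observed over expected number of thinned Procr+ cells in which both members of a pair were found (numbers; colour is log2 of the ratio), with expectation taken within libraries. Clu, Jam2, Gstm2 and Neo1 share the highest ratios, up to 1.86, and the row of Plscr2 holds the only ratios under 1 (0.91 and 0.99).

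The link showed in the number of members per cell. With 5 or more members found there were 298 cells where 196 were expected, with 7 members 25 where 4.87 were, and with 0 members 187 where 134 were. Slamf1 was found in 14.3% of the 793 cells with 0 or 1 member and in 41.6% of those with 5 or more, and Cd34 in 81.0% and 51.7%. Flt3 stood at 57.1 CPM in the first band and 18.1 CPM in the last, and Vwf at 7.38 and 57.2 CPM. The share of cells above the cycle limit was 28.0% in the first band and 15.1% in the last. The median counts before thinning were 135211 and 150024.5, so the bands differed little in depth.

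As correlations the links were weak. Over the 45 pairs the median Spearman rho of library-centred log2 thinned counts was 0.073, with 43 above 0 and 17 at 0.1 or more, while among the 5389 genes found in at least 20% of cells 61.6% of pairs were above 0 and 0.391% reached 0.1. The 5 members that met that 20% limit, which are the like comparison, had 2 of 10 pairs at 0.1 or more and a median of 0.069. With ranks taken inside each library 44 of 45 pairs were above 0, 7 reached 0.1 and the median was 0.053. By that measure Sult1a1 and Clec1a were the most alike pair (0.16), followed by Jam2 and Sult1a1 and by Clu and Gstm2 (both 0.12). Each member except Mt1 was correlated below 0 or near 0 with the G1/S sum: Sult1a1 at -0.20, Ehd3 at -0.08, Clec1a at -0.07 and Gstm2 at -0.01, against 0.03 for Mt1. All 10 were above 0 with Slamf1 (0.04 for Plscr2 to 0.11 for Aldh1a1) and below 0 with Cd34 (-0.24 for Sult1a1 to -0.04 for Plscr2).

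Of 5384 other genes, Cd34 had the lowest correlation with the mean standardised level of the members (rho -0.25, and -0.24 with ranks inside libraries). Slamf1 was eighth from the top (0.19) and ninth with ranks inside libraries (0.19), and Procr was at 0.16. The highest were Nupr1 (0.22), Mmrn1 (0.22) and Clca3a1 (0.22), which are themselves on the list of other genes reported higher in old HSCs. Of that list 8 genes were frequent enough to be compared. All 8 were above 0 and 7 reached 0.1, while 1.5% of all genes did. That list was chosen with earlier results of these data known, so it is no independent check. Outside the lists the 15 highest were Ifitm1 (0.21), Apoe (0.21), Hacd4 (0.20), Slamf1, Uba7 (0.19), Trim47 (0.18), Bex4 (0.18), Selenom (0.18), Mycn (0.18), Slfn2 (0.17), Socs2 (0.16), Ifitm3 (0.15), Gng11 (0.15), Nt5c3 (0.15) and Coq8a (0.15). They include the interferon-induced membrane protein genes Ifitm1 and Ifitm3, the apolipoprotein E gene and the cytokine feedback inhibitor gene Socs2. The 10 lowest were Tmsb10 (-0.22), Cmtm7 (-0.21), Nkg7 (-0.19), Crip1 (-0.18), Ptma (-0.18), Gpx1 (-0.17), Serpinb1a (-0.17), Cfl1 (-0.16), Plac8 (-0.16) and Cdk6 (-0.16), among them the actin regulators Tmsb10 and Cfl1 and the G1 kinase gene Cdk6. Of the 50 highest genes 43 were among the 50 highest with ranks inside libraries too. The stem cell transcription factor genes Hlf (-0.01) and Mecom (-0.00) were near 0. For single members, Sult1a1 was most like Ifitm1 (0.34) and Procr (0.25), Clec1a like Clca3a1 (0.19) and Art4 (0.17), Aldh1a1 like Apoe and Mmrn1 (both 0.13), and Plscr2 like Supt5 (0.11) and Atg10 (0.10). For Jam2 they were Clca3a1 (0.22) and Slamf1 (0.20), for Clu Slamf1 (0.22) and Clca3a1 (0.21), for Gstm2 Slamf1 (0.22) and Bex4 (0.19), and for Mt1 Slamf1 and Eps15 (both 0.11). Ehd3 was most like Capn5 (0.20) and Gm10093 (0.16), and Neo1 like Rfesd (0.19) and Gm10801 (0.18). The most alike genes of single members are given by the library-centred measure only. With ranks inside libraries Slamf1 was lower, at 0.09 with Jam2, 0.07 with Clu, 0.10 with Gstm2 and 0.06 with Mt1. The cells share libraries and depth, and a likeness says nothing of function.

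The wider list of 25 other genes reported higher in old HSCs mostly went the same ways in the pooled counts. It too was chosen with earlier results of these data known. With Slamf1, 5 of 19 tested were higher by at least 0.5, where 1.13% of all genes tested were, and none was lower. They were led by Cavin2, a caveolar coat gene (1.08), Vwf (0.98) and Ramp2, a receptor partner protein gene (0.56). With Cd34, 16 of 19 were lower, where 5.77% of all genes tested were, and none was higher. Gpr183, an oxysterol receptor gene, was at -2.21, Ramp2 at -1.62, Tm4sf1 at -1.39 and Cavin2 at -1.22. The list median was lower in 21 and higher in 11 of 35 libraries. In cycle-high cells 15 of 20 were lower, where 12.1% of all genes tested were, and 1 was higher, where 11.5% were. Ramp2 was at -1.94, Tm4sf1 at -1.63 and the NAD-consuming enzyme gene Cd38 at -1.57. The gene higher there was Mt2 (1.43), which unlike Mt1 was past the limit. Between Procr+ and Procr-negative cells 14 of 19 were higher, where 15.5% of all genes tested were, and 4 were lower, where 14.6% were. Those lower were Gpr183 (-2.08), Mt2 (-1.66), Cd38 (-1.14) and Gda (-0.59). HSC identity genes differed less with the surface marker genes. With Slamf1 0 of 13 were past 0.5 in either direction, where 2.09% of all genes tested were. With Cd34 5 of 13 were lower and in cycle-high cells 8 of 13, against 5.77% and 12.1% of all genes tested. The difference between the lists was not tested.

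Close relatives of the members did not all follow them. In the Slamf1 comparison, 1 of 13 relatives tested was higher by at least 0.5, where 1.13% of all genes tested were, and none was lower. The 1 higher was the platelet receptor gene Clec1b (0.52). Mt2, under the level limit there, was at 0.83 with Slamf1 and -0.73 with Cd34, the directions of Mt1. Gstm1, the widespread mu-class enzyme found in 97.0% of Procr+ cells, was at -0.02 with Slamf1 and -1.06 in cycle-high cells, whereas Gstm2 was at 0.67 and -0.22. Mu-class Gstm genes are similar in sequence, so reads could be split between them. Jam3, a second junctional adhesion molecule, was at 0.10 with Slamf1, -0.94 with Cd34 and -0.70 in cycle-high cells. Plscr1, Plscr3 and Plscr4 were at 0.08, 0.07 and 0.09 with Slamf1, as small as Plscr2, and Ehd4 was at 0.00, 0.30 and 0.13 in the 3 comparisons.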

How the data were processed

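The authors deposited 1 matrix of whole-number counts per gene and cell, without normalization. The tools in the submitters' processing notes are HTSeq 0.9.1, Trimmomatic 0.36 and HISAT2 2.1.0, with build GRCm38. Per the labels' protocols, single-cell cDNA was barcoded, pooled and enriched for 3' ends (STRT-seq, after Smart-seq2). The 17 columns of 1 library could not be assigned and were not used. Summed counts of the kept cells ranged from 1665151 to 26184494 per library. Members and lists were chosen with earlier results of these data known. Groups were set by at least 1 count of Procr, Slamf1 or Cd34 or by the cycle gene sum; ratios used a pseudocount of 1 CPM, and genes of at least 5 CPM were the background. Outside the lists, the 15 highest and 10 lowest genes by correlation with the member mean, and the 2 highest for each member, were named. Thinning used seed 1. No doublet caller was run, since cells were sorted singly. Ratios were tested on simulated data. Python 3.11.15, numpy 2.4.6, scipy 1.17.1 and pandas 2.3.3 were used.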

Additional observations from a re-analysis of the deposited data

How the results depend on the processing

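The pooled matrix gives no replicates, so a value was called moved when it changed by more than the SD over libraries (by more than 0.25 within strata), and a count when it changed by over 1.5 times. The member medians kept their sign under every alternative run: 0.25 to 0.55 for Slamf1, -1.15 to -0.32 for Cd34, -0.93 to -0.47 for the cycle classes and 0.66 to 1.41 for Procr. The number of members past 0.5 changed for Slamf1 from 5 to 2 by the median over libraries, where Gstm2 and Mt1 remained past it, and to 3 with a pseudocount of 10 CPM, and for Cd34 from 8 to 3 by the median over libraries. Between cycle classes within Slamf1+ Cd34-negative cells the median was -1.29 without the 8 libraries high in erythroid or neutrophil genes, on 9 cycle-high cells. Single members with a main difference past 0.5 turned in 4 cases: Plscr2 with Cd34 (-0.19, thinned cells), Clu with Cd34 (0.15, library median), Clu with Procr (-0.26, mean of per-cell CPM) and Mt1 with Procr (0.21, library median). Under that limit, Mt1 between the cycle classes (0.10) was below 0 in 3 of 15 alternatives, down to -0.41. The cause was not tested. Counts of all genes past 0.5 moved more: with Slamf1 from 112 higher and 94 lower to 171 and 233 (thinned), 17 and 589 (library medians), 20 and 23 (pseudocount 10 CPM), 188 and 314 (5 counts of Slamf1 required) and 518 and 455 (no minimum level); with Cd34 from 675 and 569 to 295 and 354, 2942 and 84, 253 and 248 and, without a minimum level, 1218 and 1822; for lower genes in cycle-high cells from 1192 to 1827 (library medians), 525 (pseudocount 10 CPM), 1990 (no minimum level, with 1886 higher against 1130) and 693 (G2/M genes alone); and with Procr from 1551 and 1455 to 2459 and 42 (library medians), 2377 and 2570 (no minimum level), and 693 (thinned) or 770 (pseudocount 10 CPM) higher. Pairs found together more often than expected numbered 40 to 45. Alternatives leaving out named libraries, ranking inside libraries or thinning within strata were chosen after seeing the data. No paired analysis was possible because no cell is tied to a sample or its replicate number; values taken within libraries stand beside the pooled ones. Levels under about 10 CPM, those of Neo1, Ehd3 and Clu, rest on few cells.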

Other observations

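Of the cell cycle inhibitor and quiescence list, 6 of 11 genes were lower by at least 0.5 in cycle-high Procr+ cells and 2 higher. Of all genes tested 12.1% were lower and 11.5% higher by that much. Ndn (necdin, a growth suppressor) was at -1.37, the inhibitor gene Cdkn1c at -1.06 and Txnip at -1.05, beside Cdkn1a at 0.62. Of the multipotent progenitor list, 7 of 7 genes tested were at a lower level in Slamf1+ cells, 2 of them by at least 0.5, where 0.953% of all genes tested were. These were Flt3 at -0.73 and Dntt, the terminal transferase of lymphoid progenitors, at -0.67. In the 5 libraries with fewer than 10 Procr+ cells, 21 such cells were found in all, and in TP56, with 6 of them, Sult1a1 was at 0.60 CPM and Aldh1a1 at 1.81 CPM, near the levels of Lib22. Lgals1, the galectin-1 gene, stood at 588, 740 and 620 CPM in Lib19, Lib22 and Lib23 against a median of 183 CPM in the other 59 libraries, which ranged from 79.9 to 1191 CPM; it was named after its values were seen.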
